A study of Mus musculus with 9 samples.

Results

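The comparison described here sets RNA that co-immunoprecipitated with phosphorylated UPF1 (p-UPF1) against size-matched input RNA, gene by gene, in N2A cells, a mouse neuroblastoma line. All 9 libraries came from cells that had received okadaic acid, which blocks several protein phosphatases, at 200 nM over 2 h, so the input carries the treatment as well. Input RNA, RNA recovered with antibody to p-UPF1 and RNA recovered with control rabbit IgG (rIgG) were digested with RNase I, and 3 libraries per group were made from the short fragments. Counts were summed over the transcripts that share a gene symbol, and 16919 of 54325 symbols reached a summed count of 10 in the 6 input and p-UPF1 IP libraries. The labels do not say whether the libraries came from separate cultures, so the p-values measure the spread between these libraries, which may be technical.

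UPF1 is an RNA helicase at the core of nonsense-mediated mRNA decay (NMD), the pathway that removes mRNAs whose translation stops too early. Once a ribosome terminates upstream of an exon junction complex, or far from the 3' end, the kinase SMG1 phosphorylates UPF1, and p-UPF1 recruits further factors, among them SMG5 and SMG6, which start decay. Okadaic acid slows the removal of the phosphates, so p-UPF1 builds up on its RNAs. UPF1 also takes part in the decay of replication-dependent histone mRNAs, and several mRNAs of the NMD machinery are themselves NMD targets.

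Totals were 25184464 to 29857955 counts in the input libraries and 5312526 to 6246110 in the p-UPF1 IP libraries, and the 10 most-counted genes took 72.5% to 82.2% of the counts in each of these. With 3 counts as the floor, a gene needed 0.100 to 0.119 counts scaled to the library total (CPM) in input and 0.480 to 0.565 CPM in the p-UPF1 IP to be seen, a limit that covers counting error only. The rIgG IP libraries held 79010 to 474491 counts, and their values are set beside the others without a test. Of 18 neuronal and neuroblast marker genes 15 passed the count filter over these 6 libraries, with a summed level of 464 to 517 CPM of the total in input and 712 to 794 in the p-UPF1 IP. Of 22 markers of glia, blood, endothelium, epithelium and liver 3 passed, with 2.91 to 3.92 CPM in input and 11.8 to 14.4 in the p-UPF1 IP.

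In edgeR's quasi-likelihood test, 2915 genes were enriched in the p-UPF1 IP (log2 fold change above 1, adjusted p under 0.05), which is 17.2% of the genes tested, and 4484 were depleted past the same thresholds, which is 26.5%. Among the 12793 protein-coding genes, 18.6% were enriched and 24.7% were depleted. The median log2 fold change over all genes was -0.42, and values for gene groups are read against that level. With library totals in place of TMM factors the median moved up by 0.41, enriched genes (4109) outnumbered depleted ones (3160), and their share of all calls went from 39.4% to 56.5%. The same setting turned the sign of the median in 13 of 53 gene lists, among them the aminoacyl-tRNA synthetases, the exon junction complex, the Id, Hes and Hey factors and the neuronal markers. Of the 1599 genes without a count in the p-UPF1 IP, 934 were depleted, and all 67 genes without a count in input were enriched. Such genes passed the count filter only through the group where they were counted. Their direction was thus set in advance, and these numbers describe the filter and the depth of the libraries.

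**Figure D1:**
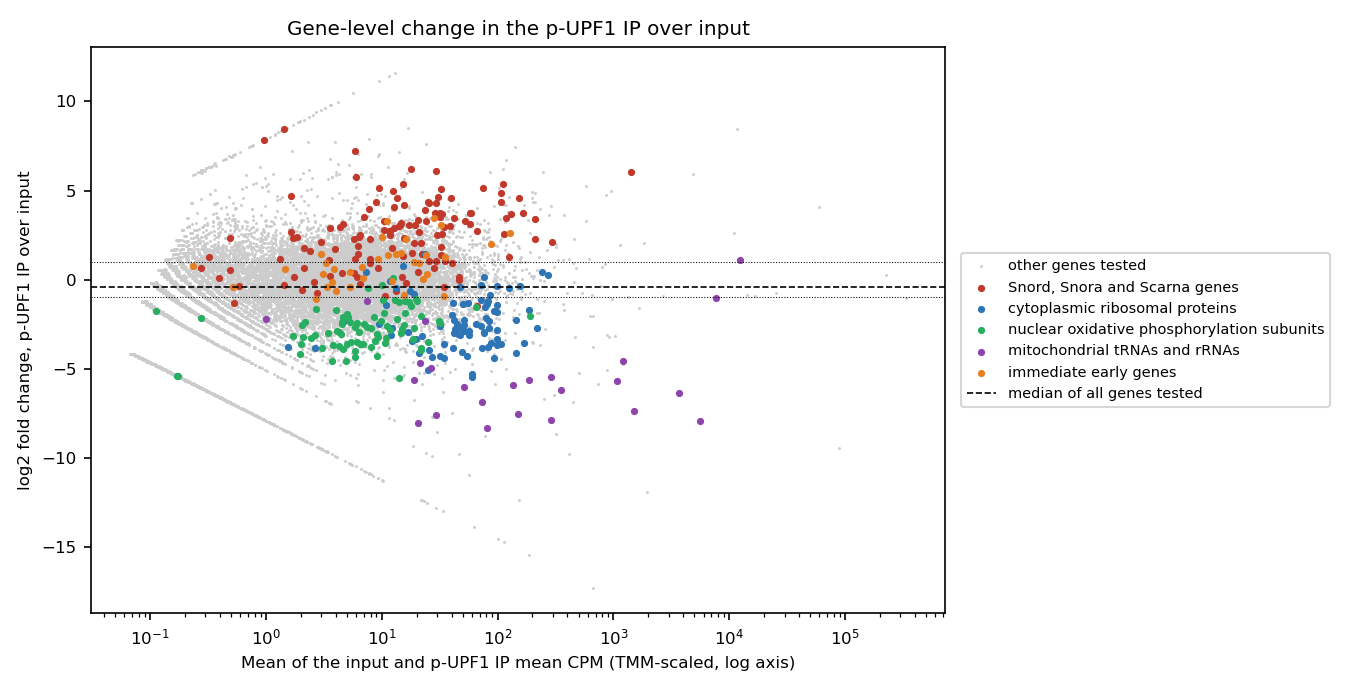
Log2 fold change of each of the 16919 genes in the p-UPF1 IP over input (y axis) against the mean of its 2 group means in TMM-scaled CPM (x axis, log scale). Grey points are other genes, colours mark 5 gene groups, the dashed line is the median of all genes at -0.42 and the dotted lines are the fold thresholds. Most small nucleolar RNAs lie above the line, and most ribosomal protein, oxidative phosphorylation and mitochondrial tRNA and rRNA genes lie below it.

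Among the gene families, small RNAs lay at both ends, with nucleolar RNAs at the upper end and mitochondrial tRNAs at the lower one. Small nucleolar RNAs (snoRNAs) guide the chemical modification of ribosomal RNA, the C/D box class methylation and the H/ACA box class pseudouridylation, and most are released from the introns of host genes. The sequences below, from GENCODE M21 (GRCm38, 5' to 3'), are those of short RNAs named in the paragraphs that follow. The first 4 are snoRNAs, in which capitals mark the C box TGATGA and the last D box CTGA where a search of the transcript strand found both in that order. They are followed by the U7 snRNA gene Rnu7, whose RNA serves in histone pre-mRNA 3' end processing, and by the mitochondrial tRNA genes for serine and histidine, which had no such pair of boxes.
Snord50b, chr9:88521797-88521868, minus strand: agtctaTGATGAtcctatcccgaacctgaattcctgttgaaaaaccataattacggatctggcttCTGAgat
Snord50a, chr9:88521529-88521600, minus strand: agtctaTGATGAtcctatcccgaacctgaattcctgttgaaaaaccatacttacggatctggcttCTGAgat
Gm23212, chr1:161036682-161036741, plus strand: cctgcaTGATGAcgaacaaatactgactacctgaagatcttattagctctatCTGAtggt
Gm22489, chr1:161035850-161035911, plus strand: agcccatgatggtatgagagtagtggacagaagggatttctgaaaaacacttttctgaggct
Rnu7, chr6:124741225-124741286, minus strand: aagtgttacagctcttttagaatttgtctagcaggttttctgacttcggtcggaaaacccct
mt-Ts2, chrM:11613-11671, plus strand: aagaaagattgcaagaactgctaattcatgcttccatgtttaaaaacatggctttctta
mt-Th, chrM:11546-11612, plus strand: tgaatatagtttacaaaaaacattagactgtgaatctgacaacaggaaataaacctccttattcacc

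Of 309 genes annotated as snoRNAs, 219 were enriched and 12 depleted, and their median log2 fold change was 2.56. Snord50b stood at 40.8, 46.1 and 42.7 CPM in the input libraries and at 3191, 2957 and 2307 CPM in the p-UPF1 IP libraries (log2 fold change 6.03 ± 0.14 SE, adjusted p = 7.5e-10, edgeR). The groups lay far apart, and the rIgG IP libraries, scaled by their totals, were at 362, 955 and 975 CPM. Snord50a and Snord50b differ by 1 base over 72, so that counts assigned to one of them are uncertain, and Snord50a received 7 to 17 counts in the p-UPF1 IP and none in input. A pair of snoRNAs within Gas5 also stood far above input. Gm23212 had 28.8 ± 1.96 CPM (SD, n = 3) in input and 1121 ± 136 CPM in the p-UPF1 IP, and Gm22489 had 60.6 ± 3.45 and 1664 ± 240 CPM.

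Both box classes were represented among the enriched genes. By symbol, 62 of 81 Snord genes, 31 of 38 Snora genes and 5 of 9 Scarna genes (small Cajal body RNAs, which guide modification of spliceosomal RNAs) were enriched, and their median log2 fold changes were 2.54, 2.61 and 1.15. The C box and D box letters were present in 48.3% of the annotated snoRNA transcripts, and the genes with them (99 of 148 enriched, median 2.50) and without them (120 of 161 enriched, median 2.76) are set side by side without a test. Snord72, with 98.4 ± 8.05 CPM in input and 34.8 ± 4.75 CPM in the p-UPF1 IP, was the 1 named Snord gene that was depleted (log2 fold change -1.50, adjusted p = 6.6e-07). Summed over the Snord, Snora and Scarna genes, the level was 1076 to 1108 CPM of the total in input, 9255 to 11670 CPM in the p-UPF1 IP and 1697 to 3632 CPM in the rIgG IP, and the part of RNA recovered without the p-UPF1 antibody in the comparison with input was not tested. Rnu7 behaved as the snoRNAs did, from 57.7 ± 6.07 to 1841 ± 177 CPM (log2 fold change 4.99), with 704 to 1038 CPM of the total in the rIgG IP, whereas the median of 192 genes annotated as snRNAs was -1.37, with 10 enriched and 63 depleted.

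Among 16 small nucleolar RNA host genes (Snhg symbols, Gas5 and Epb41l4aos), 8 were enriched and 2 depleted (median 1.30). Gas5, whose spliced RNA is short-lived through NMD, stood at 106, 102 and 112 CPM in input and at 1223, 1070 and 886 CPM in the p-UPF1 IP (log2 fold change 3.31 ± 0.12). Snhg15 rose from 5.97 ± 1.03 to 82.2 ± 6.05 CPM (3.78 ± 0.12), whereas Snhg11 was depleted (-3.86 ± 0.83), at 0 to 1 count in each p-UPF1 IP library. Reads of a snoRNA and of the intron around it can be shared: 72.3% of the Gas5 counts were assigned to a retained-intron transcript, and the 8 tested small RNAs annotated as snoRNAs inside Gas5 had log2 fold changes of 2.97 to 5.28. Among protein-coding genes whose span holds a tested snoRNA on the same strand 22 of 129 were enriched (17.1%) and 50 depleted (38.8%). The shares in the other protein-coding genes were 18.6% and 24.5%. The median was -0.55 with a snoRNA, against -0.19 for the others.

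At the other end, all 22 mitochondrial tRNA genes were depleted, with a median log2 fold change of -5.99. These RNAs, like the mitochondrial mRNAs, are made and used inside mitochondria. mt-Ts2 stood at 11139, 10589 and 11392 CPM in input and at 40.0, 48.0 and 49.3 CPM in the p-UPF1 IP (log2 fold change -7.91 ± 0.13, adjusted p = 8.7e-11). mt-Th had 7342 ± 458 CPM in input and 90.8 ± 4.37 CPM in the p-UPF1 IP. Scaled by library totals, mt-Ts2 held 9420 to 9847 CPM in input, 44.4 to 58.0 in the p-UPF1 IP and 1531 to 2954 in the rIgG IP, and mt-Th held 5691 to 6854, 98.3 to 110 and 6057 to 11293 CPM. The rIgG IP libraries lay between the other groups for mt-Ts2 and overlapped input for mt-Th. The 2 mitochondrial rRNAs parted from the tRNAs: mt-Rnr1, of the small subunit, was enriched (1.08 ± 0.13) and mt-Rnr2, of the large subunit, was depleted (-1.03 ± 0.13). Both calls are borderline: mt-Rnr1 was at 0.97 without p-UPF1 IP library 1, and mt-Rnr2 was at -0.90 without input library 2 and at -0.99 and -0.92 without p-UPF1 IP libraries 2 and 3. With library totals mt-Rnr2 was at -0.63, and without a filter on low counts mt-Rnr1 lost its call as well.

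All 13 mitochondrially encoded mRNAs were depleted (median -4.71). mt-Co1, a catalytic subunit of cytochrome c oxidase, stood at 2267, 2314 and 2374 CPM in input and at 94.9, 90.6 and 77.5 CPM in the p-UPF1 IP. The smallest difference was that of mt-Nd6, a subunit of complex I, at -2.74 ± 0.09. mt-Atp6, a subunit of ATP synthase, had 100 counts in 1 p-UPF1 IP library and none in the other 2. Summed over the 13 mRNAs, the level was 7945 to 8356 CPM of the total in input, 556 to 772 CPM in the p-UPF1 IP and 6523 to 7920 CPM in the rIgG IP.

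**Figure D2:**
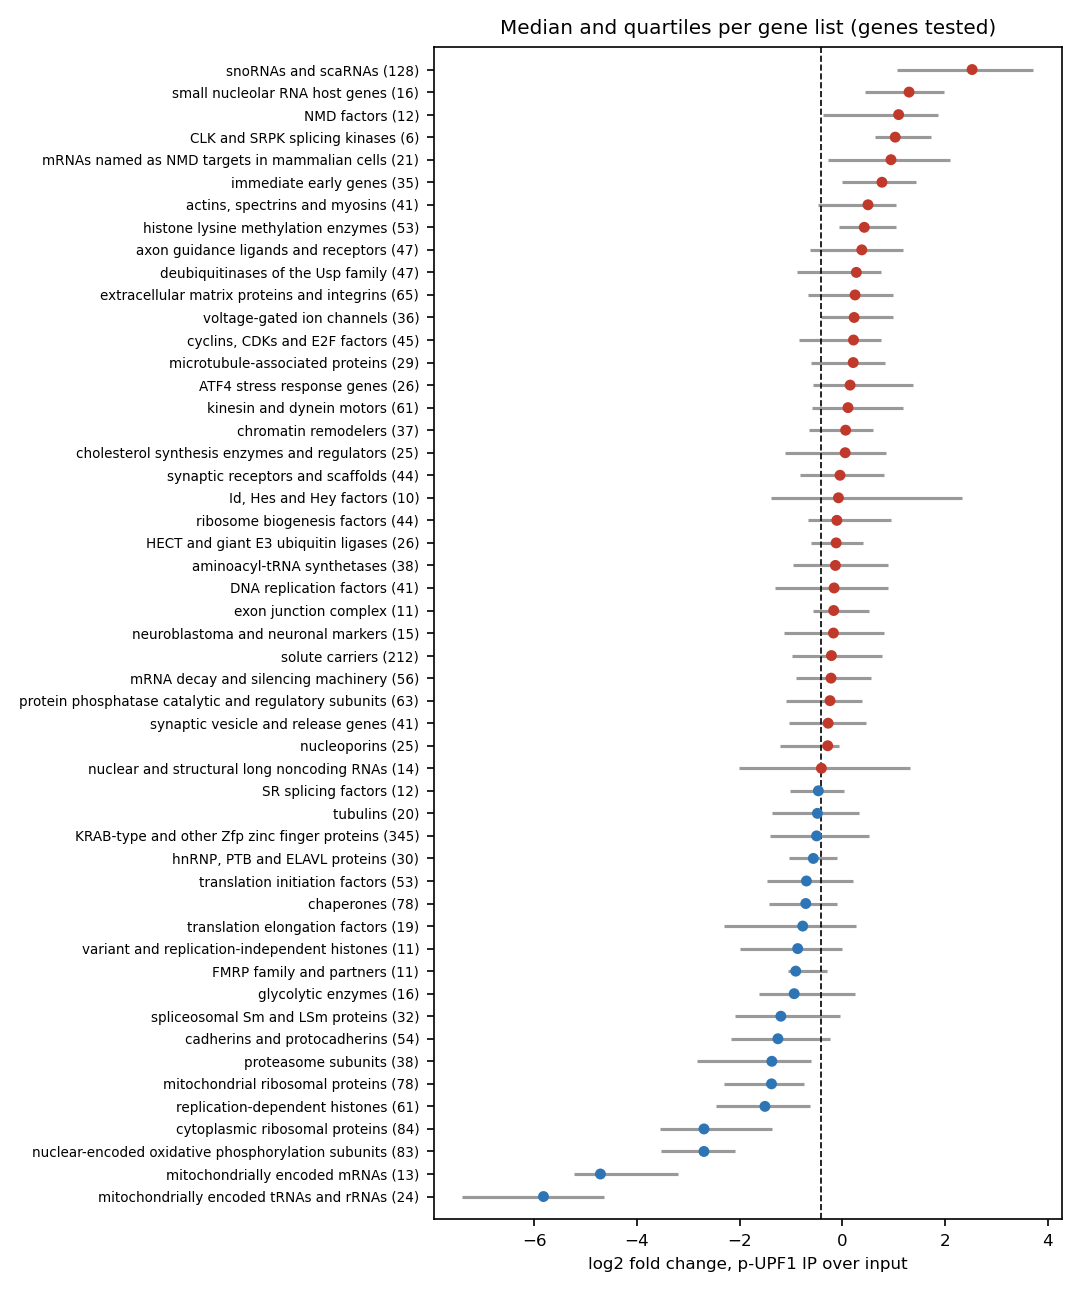
Median (points) and quartiles (bars) of the log2 fold change in the p-UPF1 IP over input for gene lists with at least 6 genes tested, whose number stands in brackets. Red points lie above and blue points below the median of all genes (dashed line, -0.42); the medians run from -5.82 for mitochondrial tRNAs and rRNAs to 2.53 for snoRNAs and scaRNAs.

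The mRNAs of the translation apparatus and of energy metabolism formed large depleted blocks of protein-coding genes. Among 84 cytoplasmic ribosomal protein genes, 68 were depleted and 1 was enriched (median -2.69). Rps7, of the small subunit, stood at 119, 101 and 135 CPM in input and at 1.69, 3.02 and 3.24 CPM in the p-UPF1 IP (log2 fold change -5.45 ± 0.18, adjusted p = 4.3e-09). Rack1, the ribosome-bound scaffold, had 380 ± 3.30 CPM in input and 58.5 ± 2.02 CPM in the p-UPF1 IP. The most-counted member after Rack1 was Rpl4, of the large subunit, at 249 ± 2.13 and 295 ± 23.8 CPM (0.24 ± 0.07), and the enriched gene was Rpl12, from 12.7 ± 1.83 to 34.0 ± 4.14 CPM, for which a retained-intron transcript took 81.6% of the counts. Ribosomal protein genes that hold a tested snoRNA were depleted in 24 of 31 cases and the others in 44 of 53.

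Mitochondrial ribosomal protein genes, encoded in the nucleus, were depleted in 50 of 78 cases and enriched in 2 (median -1.38). Mrpl15 went from 14.6 ± 0.283 CPM in input to 2.96 ± 0.800 CPM in the p-UPF1 IP, while Mrpl49 was among the 2 enriched (1.89 ± 0.10). Of the translation elongation factor genes, a list that also holds the enzymes that methylate them, 9 of 19 were depleted and 1 was enriched (median -0.77). Eef1a1, which brings aminoacyl-tRNA to the ribosome, stood at 1653, 1637 and 1697 CPM in input and at 158, 179 and 190 CPM in the p-UPF1 IP (-3.24 ± 0.09). Eef2, the translocase, differed less (679 ± 19.1 and 398 ± 26.8 CPM, -0.77 ± 0.07) and did not pass the fold threshold.

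Initiation factor genes were depleted in 16 of 53 cases (30.2%) and enriched in 4 (7.55%; median -0.70), against 24.7% and 18.6% over protein-coding genes. Eif3m, a subunit of the factor that joins mRNA to the small ribosomal subunit, was depleted (-3.68 ± 0.14), and Eif4a2, an RNA helicase, was enriched, at 32.2, 32.3 and 35.2 CPM in input and 191, 186 and 171 CPM in the p-UPF1 IP. In Eif4a2, 54.0% of the counts were assigned to a retained-intron transcript and 5 tested snoRNAs lie within the gene, with log2 fold changes of 2.06 to 6.93. Aminoacyl-tRNA synthetase genes were enriched and depleted in 9 cases each of 38 (23.7%, median -0.13), against 18.6% and 24.7% over protein-coding genes. Their summed level is set by Lars2, one of the 10 most-counted genes. It held 164967 to 191659 CPM of the total in input, 267823 to 288242 in the p-UPF1 IP and 120845 to 154378 in the rIgG IP. A single transcript annotated as an NMD substrate took 94.3% of its counts. Whether these reads came from Lars2 mRNA was not tested, so they are not read as an NMD signal.

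Nuclear genes for subunits of oxidative phosphorylation were depleted in 78 of 83 cases, and none was enriched (median -2.69). Atp5b, the catalytic subunit of ATP synthase, had 304, 294 and 320 CPM in input and 73.4, 72.0 and 81.8 CPM in the p-UPF1 IP (-2.01 ± 0.08). The lowest of those named was Cox7a2, a subunit of cytochrome c oxidase, at 27.5 ± 2.98 and 0.590 ± 0.363 CPM (-5.52 ± 0.23). Ndufa10, a subunit of complex I, was the highest, with 12.2 ± 0.902 CPM in input and 12.4 to 13.5 CPM in the p-UPF1 IP (0.09 ± 0.09, adjusted p = 0.43).

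Proteasome subunit genes were depleted in 24 of 38 cases, and none was enriched (median -1.37). Psma6 and Psmb1, of the outer and inner rings of the catalytic core, went from 67.3 ± 6.11 to 2.53 ± 1.11 CPM and from 44.4 ± 3.89 to 2.17 ± 0.377 CPM. Glycolytic enzyme genes were depleted in 8 of 16 cases, again with none enriched (median -0.94). Gapdh varied between input libraries (55.8, 96.7 and 85.4 CPM) and was lower in all 3 p-UPF1 IP libraries (5.25, 4.67 and 12.7 CPM; -3.38 ± 0.32), while Pkm, which makes pyruvate, lay at 105 to 115 CPM in input and at 142 ± 7.28 CPM in the p-UPF1 IP (0.37 ± 0.07).

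Against 24.7% and 18.6% over protein-coding genes, chaperone genes were depleted in 30 of 78 cases (38.5%) and enriched in 7 (8.97%; median -0.71). Within them, all 7 genes for subunits of the CCT chaperonin, which folds actin and tubulin, were depleted (median -1.97), a subgroup chosen after values were seen. Cct8 stood at 78.0 ± 3.54 CPM in input and 15.2 ± 0.460 CPM in the p-UPF1 IP. Hsp90ab1 (-0.11 ± 0.07) lay above the median of all genes, and Dnajb2, a neuronal co-chaperone, was enriched (2.87 ± 0.08). The tubulin list, which includes the gamma-tubulin complex genes, had 7 of 20 genes depleted and 3 enriched. These shares of 35.0% and 15.0% compare with 24.7% and 18.6% over protein-coding genes. Tuba1a, at 155, 146 and 154 CPM in input and 8.98, 7.96 and 11.1 CPM in the p-UPF1 IP, was the lowest of them at -4.01 ± 0.11.

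Histone genes parted by class. Replication-dependent histone genes, whose mRNAs end in a stem-loop in place of a poly(A) tail, were depleted in 38 of 61 cases and enriched in 5 (median -1.51). Among the core histones, which wind the DNA, 38 of 56 genes were depleted and 1 was enriched (median -1.62). Of the 6 linker histone H1 genes, 4 were enriched and 1 depleted (median 1.26), and the split into core and linker histones was chosen after values were seen. Hist1h1d stood at 19.7, 19.3 and 23.6 CPM in input and at 179, 144 and 121 CPM in the p-UPF1 IP (2.82 ± 0.14, adjusted p = 6.1e-08), and Hist1h1a followed (2.35 ± 0.14). Hist1h1c, the most-counted linker histone named, lay lower in the p-UPF1 IP (54.7 ± 3.67 and 37.7 ± 3.55 CPM) without passing the fold threshold. Hist1h4k, of the core, went from 76.6 ± 10.9 to 10.9 ± 3.38 CPM. Histone genes are near-identical copies, so that the division of counts between single genes is uncertain. Summed, the linker histones held at most 128 CPM of the total in input, 398 to 531 in the p-UPF1 IP and 101 to 180 in the rIgG IP, whereas the core histones held 520 to 587, 207 to 217 and 405 to 478 CPM.

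The mRNAs of the NMD machinery itself lay at the enriched end. Of 12 NMD factor genes, 6 were enriched and 1 was depleted (median 1.10). Upf1 (chr8:70331525-70353278, minus strand) stood at 15.3, 16.2 and 15.8 CPM in input and at 65.7, 68.5 and 67.5 CPM in the p-UPF1 IP (2.09 ± 0.07, adjusted p = 3.9e-09, edgeR), and no library of one group came near the other. The p-UPF1-binding factor gene Smg5 (1.87 ± 0.09), the endonuclease gene Smg6 (1.62 ± 0.09), Smg9, which encodes a subunit of the SMG1 complex (1.87 ± 0.16), and the helicase gene Dhx34 (1.25 ± 0.25) were enriched as well. Smg8, of the same kinase complex as Smg9, was the depleted one, from 4.40 ± 0.520 to 1.24 ± 0.629 CPM (-1.78 ± 0.28). Smg1, the kinase (0.43 ± 0.06), and Upf2, which bridges UPF1 to the exon junction complex (0.95 ± 0.09), did not pass the fold threshold. The 12 genes together held 132 to 141 CPM of the total in input, 432 to 473 in the p-UPF1 IP and 94.8 to 139 in the rIgG IP.

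Of 21 tested genes whose mRNAs are known as NMD targets in mammalian cells, a list that shares 6 tested genes with the NMD factors, 9 were enriched and 3 depleted (median 0.95). Gadd45b, a growth arrest gene (chr10:80930073-80932204, plus strand), stood at 5.91, 5.04 and 4.66 CPM in input and at 92.0, 64.8 and 75.5 CPM in the p-UPF1 IP (3.89 ± 0.14, adjusted p = 8.0e-09). Ddit3, which encodes the stress transcription factor CHOP, stood at 8.22, 7.45 and 8.68 CPM in input and at 104, 103 and 91.6 CPM in the p-UPF1 IP (3.61 ± 0.09). Arc, a regulator of synaptic strength with introns in its 3' UTR, stood at 4.22, 4.51 and 5.10 CPM in input and at 56.9, 49.8 and 47.9 CPM in the p-UPF1 IP (3.48 ± 0.11). In all 3 genes every p-UPF1 IP library was far above every input library. The depleted members were Cdkn1a, a cell cycle inhibitor (-1.01, and -0.94 to -0.97 without input library 2 or 3 or p-UPF1 IP library 2 or 3), and 2 SR protein genes, Srsf3 (-2.66 ± 0.14) and Srsf7 (-1.85 ± 0.11). The call of Cdkn1a is not stable: it was lost without those libraries and also with library totals (-0.60), RLE factors or DESeq2 (-0.99 each), filterByExpr, all 9 libraries in one fit, protein-coding genes only and without the 10 most-counted genes. In SR protein genes some transcripts, such as those that include a poison exon, are NMD substrates. The sum over a gene does not separate these from the productive mRNA. Of the Srsf3 counts, 45.9% were assigned to a retained-intron transcript. Atf4, held down by upstream reading frames, lay at 137 ± 9.56 and 113 ± 6.71 CPM (-0.27 ± 0.08), with 82.2% of its counts in a retained-intron transcript. The list held 558 to 580 CPM of the total in input, 1998 to 2373 in the p-UPF1 IP and 492 to 519 in the rIgG IP. Such a sum weighs the genes by their counts, so that a few members can set it.

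**Figure D3:**
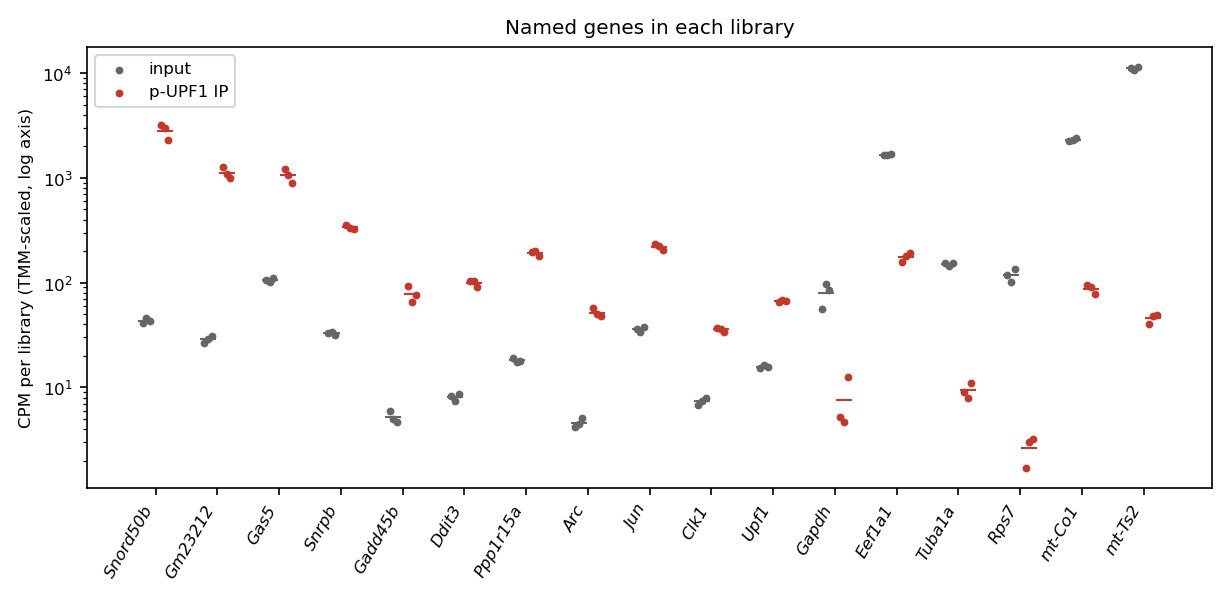
TMM-scaled CPM (log scale) of named genes in the 3 input and 3 p-UPF1 IP libraries; each point is a library and each short line a group mean. Upf1, Gadd45b, Ddit3 and Arc are higher in every p-UPF1 IP library, as are the snoRNA genes, and Rps7, Eef1a1, Tuba1a, mt-Co1 and mt-Ts2 are lower.

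Immediate early genes, transcribed at once upon stimulation and known for short-lived mRNAs, were enriched in 15 of 35 cases and depleted in 1 (median 0.77). Jun stood at 36.0, 33.6 and 37.7 CPM in input and at 232, 222 and 206 CPM in the p-UPF1 IP (2.62 ± 0.08). The clock gene Per1 (3.29 ± 0.12) and Ier5 (3.05 ± 0.11) were enriched as well, and Atf3 went from 35.3 ± 1.53 to 142 ± 7.07 CPM. Fos, the partner of Jun, stood at 22.1 ± 0.613 and 22.9 ± 1.20 CPM (0.05 ± 0.08, adjusted p = 0.58, edgeR), and Egr1 was lower without passing the fold threshold (-0.91 ± 0.10). Spry2, an inhibitor of receptor tyrosine kinase signalling, was the depleted member (-1.08), and lost its call without input library 2 and, at -0.98, without p-UPF1 IP library 3, and with library totals (-0.67). The list held 300 to 311 CPM of the total in input, 996 to 1059 in the p-UPF1 IP and 221 to 342 in the rIgG IP.

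Of 26 genes of the ATF4 stress response, which is set off by amino acid shortage and misfolded proteins, 7 were enriched and 3 depleted (median 0.15). These shares of 26.9% and 11.5% compare with 18.6% and 24.7% over protein-coding genes. Besides Ddit3, the enriched members included Ppp1r15a, which directs dephosphorylation of eIF2 (18.1 ± 0.811 and 192 ± 9.67 CPM, 10.6-fold), Stc2, a secreted glycoprotein (3.05 ± 0.09), Sesn2, an inhibitor of mTORC1 (2.67 ± 0.07) and Trib3, a pseudokinase (1.85 ± 0.07). The depleted ones included the enzymes of amino acid synthesis Asns (205 ± 9.45 and 25.2 ± 4.36 CPM, -3.02 ± 0.11) and Phgdh (-1.75), with Xbp1 as the third. The 2 relatives of Gadd45b were enriched too, Gadd45g from 2.24 ± 0.191 to 46.9 ± 3.82 CPM and Gadd45a from 3.32 ± 0.501 to 9.29 ± 0.631 CPM.

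All 4 Clk genes, which encode kinases of SR proteins, were enriched of the 6 CLK and SRPK genes tested (median 1.03). Clk1 stood at 6.87, 7.41 and 7.96 CPM in input and at 37.3, 36.5 and 34.1 CPM in the p-UPF1 IP (2.28 ± 0.09). A transcript annotated as an NMD substrate took the largest share of its counts, 37.0%. Among 599 protein-coding genes whose most-counted transcript is annotated so, 26.4% were enriched and 16.2% depleted. After Clk1 came Clk4 (1.95 ± 0.12), and Clk3 (1.04 ± 0.14) and Clk2 (1.02 ± 0.16) lay near the threshold. The Clk3 value fell just under 1 without input library 1 and was 0.95 without p-UPF1 IP library 1, and the Clk2 value was 0.98 without input library 2 and 0.92 without p-UPF1 IP library 3, and each of these lost the call, as did both genes without a filter on low counts (0.97 and 0.94). Of 12 SR splicing factor genes none was enriched and 3 were depleted (median -0.47). The depleted share of 25.0% was close to the 24.7% over protein-coding genes, and the median was close to that of all genes (-0.42). Sm and LSm proteins, the core of the spliceosomal snRNPs, were depleted in 17 of 32 cases and enriched in 3 (median -1.20). Snrpb was the outlying member, at 33.3, 33.9 and 31.9 CPM in input and at 352, 332 and 324 CPM in the p-UPF1 IP (3.35 ± 0.07), with 97.1% of its counts in a retained-intron transcript. In the exon junction complex list, Pym1, which takes the complex apart (2.87 ± 0.13), and the core subunit Casc3 (1.60 ± 0.07) were enriched. The core subunit Magoh was depleted (-2.46 ± 0.31), and the other 8 of 11 genes were not called. The shares were 18.2% enriched and 9.09% depleted, against 18.6% and 24.7% over protein-coding genes.

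**Figure D4:**
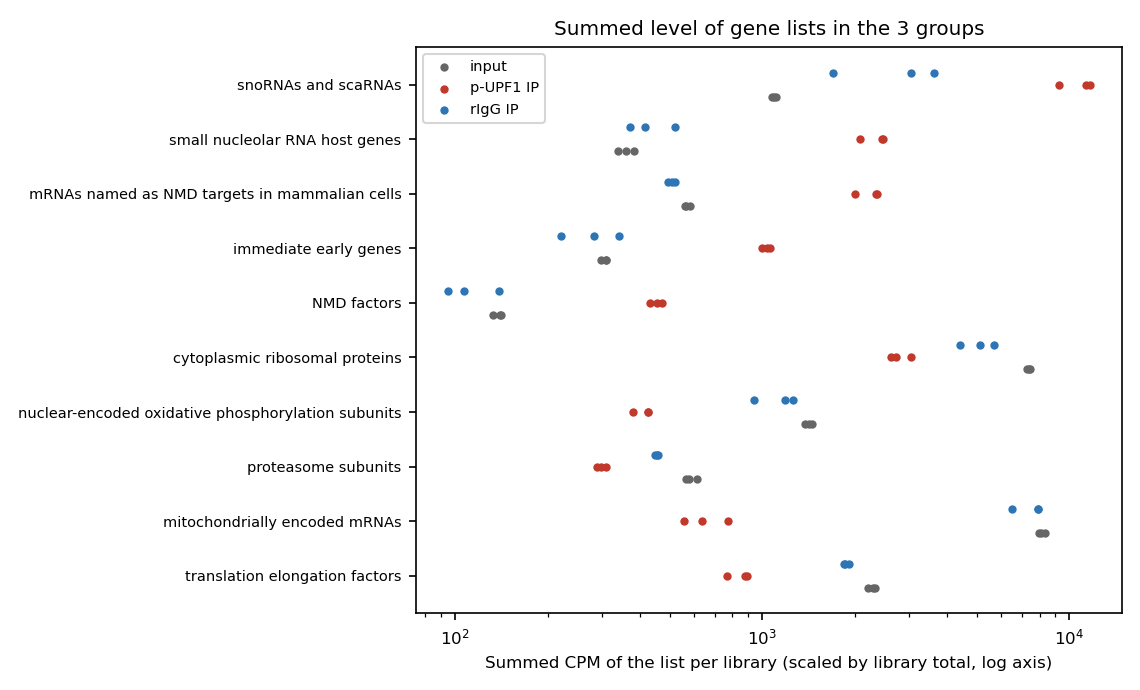
Summed level of selected gene lists in CPM of the library total (log scale) in the 3 input, 3 p-UPF1 IP and 3 rIgG IP libraries, each point a library. For the mitochondrial mRNAs the rIgG IP libraries, at 6523 to 7920 CPM, lie near input (7945 to 8356 CPM) and far from the p-UPF1 IP (556 to 772 CPM).

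Histone lysine methylation enzymes were enriched in 15 of 53 cases (28.3%) and depleted in 5 (9.43%; median 0.43). Among the enriched were the methyltransferase genes Kmt2b (10.7 ± 0.455 and 48.8 ± 2.84 CPM, 2.19 ± 0.08) and Kmt2d (1.16 ± 0.08). Axon guidance ligands and receptors were enriched in 13 of 47 cases (27.7%) and depleted in 5 (10.6%; median 0.38). The shares over protein-coding genes were 18.6% and 24.7%. In the Usp family of deubiquitinases 9 genes were enriched and 9 depleted of 47, close to the shares of 18.6% and 24.7% over protein-coding genes, and the enriched end held Usp36, a nucleolar enzyme (23.9 ± 1.39 and 125 ± 3.85 CPM, 2.39 ± 0.07).

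The neuroblast and neuronal markers had no common direction. Of the 15 tested, 3 were enriched (20.0%) and 5 depleted (33.3%; median -0.17), against 18.6% and 24.7% over protein-coding genes. Voltage-gated ion channels, synaptic receptors and scaffolds, and synaptic vesicle and release genes had medians of 0.23, -0.05 and -0.28. These lie above the median of all genes (-0.42). Relative to genes of like GC content and coding length they were at -0.43, -0.29 and -0.12. Stmn2, a regulator of growth cone microtubules, went from 56.0 ± 1.59 to 10.8 ± 1.62 CPM (-2.37 ± 0.10), whereas its relative Stmn4 went from 11.9 ± 1.10 to 80.3 ± 2.30 CPM (2.76 ± 0.09). Tubb3, the neuronal tubulin (-1.22 ± 0.09), and Gap43, of the growth cone (-1.07 ± 0.09), were depleted, and Phox2a, a transcription factor of sympathetic neurons, was enriched (1.02 ± 0.08). With library totals Tubb3 (-0.81) and Gap43 (-0.66) lost their calls. The call of Gap43 was also lost without p-UPF1 IP library 3 (-0.99) and that of Phox2a without input library 2 (0.98) or without a filter on low counts (0.94). Map1b, a microtubule-associated protein of axons, was higher in the p-UPF1 IP at 602 ± 26.1 and 1093 ± 55.8 CPM without passing the fold threshold (0.86 ± 0.07). In the Id, Hes and Hey family of transcriptional regulators 3 of 10 genes were enriched and 3 depleted (30.0% each, against the same shares). Id3 (2.96 ± 0.10) and Hes6 (4.16 ± 0.13) were enriched, and Hes7 had 1829 to 2619 counts in input and 0 to 2 in the p-UPF1 IP.

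Single protein-coding genes lay further out than any family median. Exosc6, a subunit of the RNA exosome, was without a count in input and was counted 130, 119 and 131 times in the p-UPF1 IP libraries, which is at least 148-fold higher with 3 counts per library as the floor. Sez6l, a neuronal membrane protein gene, had 1 to 2 counts per input library, while the p-UPF1 IP libraries held 124, 75 and 108. At the depleted end, Yipf1, of Golgi membranes, fell from 92323, 77831 and 104369 counts in the input libraries to 6 to 7 in each p-UPF1 IP library (-11.93 ± 0.16), with 99.9% of its counts in a transcript without a coding sequence and 5037 to 14184 CPM of the total in the rIgG IP. Letm2, a mitochondrial inner membrane protein gene, had 826 ± 44.0 CPM in input and 0.919 ± 0.286 CPM in the p-UPF1 IP (-9.77 ± 0.14). Dynlt1b, a dynein light chain gene, had 405 to 472 counts in input and none in the p-UPF1 IP, at least 41.1-fold lower. The filter let Exosc6 pass only because of its p-UPF1 IP libraries, just as it let Dynlt1b pass only because of input. For both genes the direction was thus set in advance. How the estimate divided fragments that these single genes may share with similar genes was not tested.

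AA474408, of unclassified type, stood at 5596, 8916 and 5556 CPM in input and at 122702, 100168 and 114149 CPM in the p-UPF1 IP (4.07 ± 0.21), and Gm25732, annotated as a miRNA, went from 66.4 ± 20.8 to 23227 ± 3957 CPM (8.45 ± 0.27). CT010467.1, an rRNA gene on chromosome 17, went from 177676 ± 6315 to 255 ± 27.4 CPM (-9.45 ± 0.16). It overlaps Gm42418 on the opposite strand (451414 ± 23430 and 223012 ± 20030 CPM), so that the division of counts between them is uncertain. The nuclear RNAs Rn7sk, which holds the elongation factor P-TEFb inactive, and Malat1, of nuclear speckles, were depleted (-3.12 ± 0.09 and -2.78 ± 0.08), whereas Rmrp, the RNA of RNase MRP (2.00 ± 0.10), and Terc, the telomerase RNA (2.30 ± 0.28), were enriched. Processed pseudogenes were depleted in 339 of 860 cases and enriched in 62 (median -2.70).

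Across 12753 protein-coding genes with a coding transcript, the log2 fold change followed base composition. Over 5 bins of equal size, from the lowest to the highest transcript GC content, the median went from -1.07 through -0.53, -0.12 and 0.29 to 0.72, the share of enriched genes from 4.04% to 37.0% and that of depleted genes from 43.6% to 10.9%. Spearman's coefficient over genes was 0.417, and 0.443 with the GC content of the 3' UTR. These are descriptions across genes, which share their libraries and are not independent replicates. The median also went from -0.90 in the bin with the shortest coding sequences to 0.17 in the bin with the longest, and from -0.70 to 0.17 with the number of exons.

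The 3' UTR, whose length is a known determinant of UPF1 binding, gave a smaller gradient by itself, with medians of -0.55, -0.27, -0.06, 0.02 and -0.18 from the shortest to the longest bin. Long 3' UTRs were poorer in GC, since the median transcript GC content was 53.8% in the shortest bin and 46.3% in the longest. Within the middle bin of GC content the medians were -0.88, -0.65, -0.15, 0.31 and 0.58. Relative to genes of like GC content and coding length they ran from -0.47 to 0.33. The 5' UTR length showed no such gradient, with medians between -0.26 and -0.12.

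**Figure D5:**
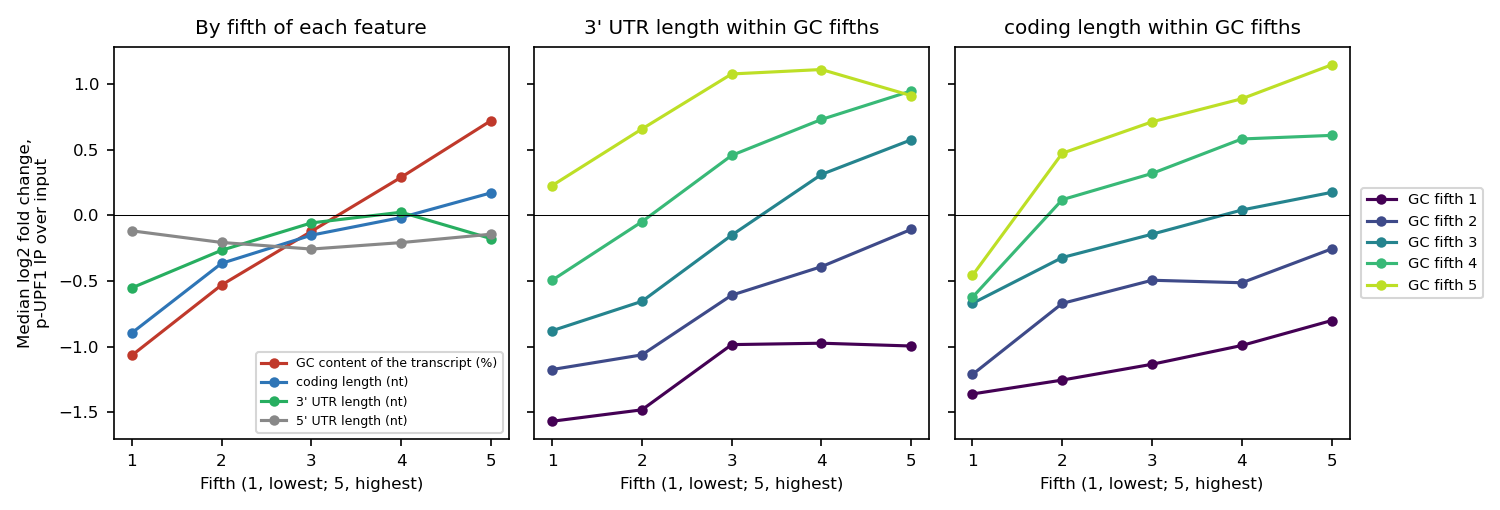
Median log2 fold change (y axis), p-UPF1 IP against input, of 12753 protein-coding genes split into 5 bins of equal size (x axis, lowest to highest) by each of 4 transcript features (left), and by 3' UTR length (middle) and coding length (right) within each of the 5 bins of GC content. Each point is a bin's median; it goes from -1.07 to 0.72 with GC content, and in the middle GC bin from -0.88 to 0.58 with 3' UTR length.

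In the 44 genes whose representative transcript has an exon junction over 50 nt downstream of the stop codon, 31.8% were enriched and 15.9% depleted (median 0.54, against -0.19 for the other 12709). Genes with an annotated NMD transcript had a median of 0.02 in 3656 genes, against -0.29 in the 9097 without. An ATG in the 5' UTR went with almost no difference (-0.18 with and -0.21 without). The AU-rich motif TATTTAT in the 3' UTR, searched on the transcript strand and present in 28.0% of the 3' UTRs, went with a median of -0.26 against -0.16 without it. Genes with the motif were poorer in GC (a median of 47.0% against 52.0%), and relative to genes of like GC content and coding length the order turned, at 0.15 with the motif and -0.06 without.

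Base composition and length moved with the gene families, and their part in the family values was not tested. Set against genes of like GC content and coding length, an alternative added after the data were seen, the median was -1.65 for cytoplasmic ribosomal proteins, -1.81 for oxidative phosphorylation subunits, -1.15 for proteasome subunits, 0.69 for NMD factors, 0.66 for immediate early genes and 0.90 for the NMD target list. It was -0.45 for axon guidance genes, whose sign changed, and -0.25 for Sm and LSm proteins. The replication-dependent histones moved from -1.09, relative to the median of all genes, to -0.33. On the same scales core histones moved from -1.20 to -0.35 and linker histones from 1.67 to 1.37. Mitochondrial ribosomal proteins went from -0.96 to -0.70, chaperones from -0.29 to -0.37 and histone lysine methylation enzymes from 0.84 to 0.22. Initiation factors went from -0.28 to -0.0019, and SR splicing factors changed sign, from -0.05 to 0.13.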

How the data were processed

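RNA from N2A cells was sequenced as 3 input, 3 rIgG IP and 3 p-UPF1 IP libraries of RNase I-cleaved, size-selected fragments. Per the labels and methods, the authors removed reads under 35 nt, aligned with STAR (2.7.0f) to GRCm38.p6 with GENCODE M22 and deposited estimated counts per transcript from Salmon (0.13.1). Here these were summed over transcripts sharing a gene symbol (140658 transcripts, 54325 symbols) and used as whole numbers. Genes with a summed count under 10 in the 6 input and p-UPF1 IP libraries were left out. Fragments shared by overlapping genes, copies or a snoRNA and its host intron were divided by the estimate, and RNA shorter than the read limit was lost.

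Differences were tested with edgeR (4.0.16), quasi-likelihood, TMM factors and Benjamini-Hochberg adjustment over the 16919 genes. A call needed a log2 fold change beyond 1 and an adjusted p under 0.05. Fold changes are p-UPF1 IP over input, ± gives the standard error of a log2 fold change or the SD of CPM over 3 libraries, and CPM are TMM-scaled unless said to be of the total. On data simulated for this comparison (16919 genes, 200 changed), the test recovered 95% of the changed genes, and 4.04% of its calls were false. The changed genes had at least 100 counts and log2 fold changes of 2 (91% recovered) or 3 (99%), as many up as down. Far more genes were called in the real data. The simulation thus does not cover low counts, changes near the threshold or the scaling under so wide a shift. GENCODE M21 (GRCm38) gave gene types, positions, transcript features and sequences, and matched 139921 transcripts. DESeq2 (1.42.0), other scalings, filters, a replicate block and fits without each library were alternatives.

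The genes and lists were chosen with earlier results of these data known. Genes named are, by rule, from the 12 protein-coding genes at each end with at least 100 counts in all and, per list, the 2 most-counted and the extreme members with at least 50 counts, and Upf1. The following were chosen after their values were seen: CT010467.1, mt-Ts2, mt-Th, Malat1, Cct8, Srsf7, Phgdh, Xbp1, Tubb3, Gap43, Gm42418, Cdkn1a, Egr1, Fos, Upf2, Clk2, Clk3, Clk4, Phox2a, Dhx34, Gadd45a, Smg5, Smg6, Smg9, Trib3, Rmrp, Terc, Hist1h1a, Hist1h1d, Sesn2, Stc2, Ier5, Per1, AA474408, Gm22489, Gm23212, Gm25732, Rnu7 and Snord50a. Results that rest on withheld items are not reported here.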

Additional observations from a re-analysis of the deposited data

How the results depend on the processing

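The number of enriched genes was 2915 with the settings of the report, and 2973 with RLE factors, 2804 without a filter on low counts, 2798 with edgeR's filterByExpr, 2988 with all 9 libraries in one fit, 2882 with DESeq2 and 2826 to 2939 when each library was left out in turn. The number of depleted genes was 4484, and 4397, 4776, 3348, 4431, 3859 and 3990 to 4387 under the same settings. With library totals the numbers were 4109 and 3160. Each count stayed within 1.5 times that of the report. Input and p-UPF1 IP libraries share replicate numbers, but the deviations of same-numbered libraries from their group means correlated at -0.0016, 0.051 and 0.039 over 10613 genes, so the numbers were not taken as pairs. With the replicate number as a block, 2851 genes were enriched, 2823 of them shared, and 4183 were depleted, 4040 of them shared, and none of the 106 genes named changed its call. No named gene that was called changed sign under any of these settings. Calls were lost or gained in up to 8 of the 106 (library totals: 6 lost, namely Cdkn1a, Gap43, Gm42418, Spry2, Tubb3 and mt-Rnr2, at -0.60 to -0.81, and Upf2 and Map1b gained, at 1.36 and 1.27). The list medians moved with the set of genes tested and with GC content and coding length, and relative to all genes 30 of 53 kept their sign under every alternative; the residual kept it in 34 of 50. The depth of the p-UPF1 IP libraries limits low genes, and the rIgG IP libraries are too shallow for tests of single genes.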
